A study of Mus musculus with 30 samples.

Results

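The 9 genes described here make or sense 3 signals that set the width of blood vessels: the endothelins Edn1 and Edn3, their converting enzyme Ece1 and receptors Ednra and Ednrb, the endothelial nitric oxide synthase Nos3, the soluble guanylate cyclase subunits Gucy1a1 and Gucy1b1, and the angiotensin II receptor Agtr1a. They were given by name, and all probe sets that the array annotation pairs with exactly 1 of them were taken, which gave 18 probe sets for 8 of the 9 genes. Ednra was not analysed here, since no probe set is paired with it in the annotation used. All 8 genes passed the filter on low values and were among the 11243 genes tested, of 18194 covered.

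RNA of brain microvascular fragments, pieces of small vessel with endothelium and whatever mural cells adhere to it, was measured on 30 Affymetrix arrays in 8 groups, to ask what changes when pericytes are scarce. The ret mutants (pdgfbret/ret, 4 arrays, 7 to 10 months old) lack on both alleles the motif that keeps PDGF-B close to the cell that secretes it. Their ret controls (pdgfbret/+, 4 arrays, 8 to 10 months old) carry the same deletion on 1 allele. Both are on the C57/B6/J background, and no brain region is labelled. The R26P mutants (Tie2Cre, R26P+/0, pdgfb-/-) have no mouse Pdgfb and depend on a human PDGF-B transgene in the Rosa26 locus, which Cre under the Tie2 promoter, active in endothelium and blood cells, turns on. The R26P controls (R26P+/0, pdgfb+/+) carry the transgene in its silent form. Both are of mixed C57/SV129 background, and cerebrum and cerebellum gave 4 arrays each of mutants and of controls, with ages that the labels state both as 1 year and as 2 months. Wild-type C57/B6/J mice (Notch3+/+, 2 months old) gave 3 arrays of each region. Wild-type arrays were taken as normalized apart from the other 24, because their lowest value differs, so they were compared only between their own regions.

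Endothelin-1 is released by endothelial cells after cleavage of its precursor and acts on 2 receptors, of which the A type on mural cells contracts vessels and the B type, found on endothelium, mural cells and astrocytes, both relaxes vessels and clears the peptide. Nitric oxide, made in endothelium by Nos3, crosses to mural cells and activates soluble guanylate cyclase, a dimer of an alpha and a beta subunit, and the cyclic GMP it makes relaxes them. Angiotensin II contracts vessels through the type 1 receptor. In brain capillaries the cyclase subunits are known as mural cell transcripts, and Edn1 and Nos3 as endothelial ones.

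The promoter stretches of the induced ligand Edn1, of the second ligand Edn3 and of the cyclase subunit Gucy1b1 are printed. They are the 250 bases before the annotated start, from RefSeq on build GRCm38.p6. Of the members, Edn1 had the largest rise and Gucy1b1 the largest fall in mutants, and Edn3 is a second ligand that changed less. The Edn1 window is chr13:42301226-42301475 on the plus strand, that of Edn3 is chr2:174760369-174760618 on the plus strand, and that of Gucy1b1 is chr3:82074712-82074961 on the minus strand. Capitals mark matches to any of 6 motifs searched on both strands.
Edn1: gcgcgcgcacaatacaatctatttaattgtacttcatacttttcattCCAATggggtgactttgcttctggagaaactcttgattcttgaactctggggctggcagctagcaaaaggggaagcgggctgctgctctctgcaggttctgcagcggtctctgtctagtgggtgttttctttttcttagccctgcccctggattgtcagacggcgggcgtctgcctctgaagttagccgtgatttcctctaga
Edn3: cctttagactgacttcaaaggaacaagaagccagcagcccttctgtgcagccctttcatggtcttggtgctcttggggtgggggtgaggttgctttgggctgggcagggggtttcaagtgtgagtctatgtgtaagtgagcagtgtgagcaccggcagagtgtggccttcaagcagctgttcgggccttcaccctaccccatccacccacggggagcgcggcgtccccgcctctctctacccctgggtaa
Gucy1b1: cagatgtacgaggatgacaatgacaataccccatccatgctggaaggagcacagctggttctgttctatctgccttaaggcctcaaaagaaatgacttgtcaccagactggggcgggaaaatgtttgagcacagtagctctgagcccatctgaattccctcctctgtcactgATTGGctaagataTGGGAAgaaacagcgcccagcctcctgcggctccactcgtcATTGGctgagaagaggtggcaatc
The CCAAT letters of the NF-Y motif stand 203 bases before the Edn1 start, and on the opposite strand 78 and 24 bases before the Gucy1b1 start. They are common, being held by 33.8% of the 32851 promoter windows in the table. TGGGAA, the RBPJ motif, stands 65 bases before the Gucy1b1 start and is in 21.6% of windows. None of the 3 windows holds the GATA motif AGATAA (9.99% of windows), the HIF motif ACGTG (16.6%), the AP-1 motif TGANTCA (6.75%) or the CArG box (1.47%), which says only that these letters are not in these stretches. The Gucy1b1 and Gucy1a1 genes lie next to each other on chromosome 3, with 0 annotated genes between them. Of the 8 measured members, 6 had a window in the table.

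Pericyte deficiency in either model went with more Edn1 and less of both cyclase subunits, whereas the synthase Nos3 moved little and Ece1 and Agtr1a did not pass. In ret mutants 2 of 8 members rose and 3 fell, where 8% of all genes tested rose, 8.63% fell and 16.6% did either. For R26P mutant cerebrum 1 rose and 4 fell, against 8.35% of all genes rising, 10.3% falling and 18.7% in all. R26P mutant cerebellum had 1 that rose and 3 that fell, against 6.94%, 8.7% and 15.6%. The share of all genes called depended on single arrays: it was 10.3% in ret mutants without ret control 2, 12.3% in R26P cerebrum without control 1, and 10.2% and 9.94% in R26P cerebellum without control 1 or mutant 3, with 4, 5, 4 and 4 members called. The median log2 change over the members was -0.26, -0.15 and -0.05 in these 3 comparisons, and 0.013, 0.012 and 0.001 over all genes tested. In the same order, mutants and controls did not overlap for 5, 5 and 4 of the 8 members. Lack of overlap is common with 4 arrays a group, and was seen for 23.5%, 25.9% and 22.8% of all genes tested. A change is called when the limma adjusted p is below 0.05, and it is given as mutant minus control on the log2 scale, on which 1 unit is a doubling of signal. Values are those of the brightest probe set of a gene, and signals of different genes are not compared, since each probe set binds with its own strength.

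**Figure D1:**
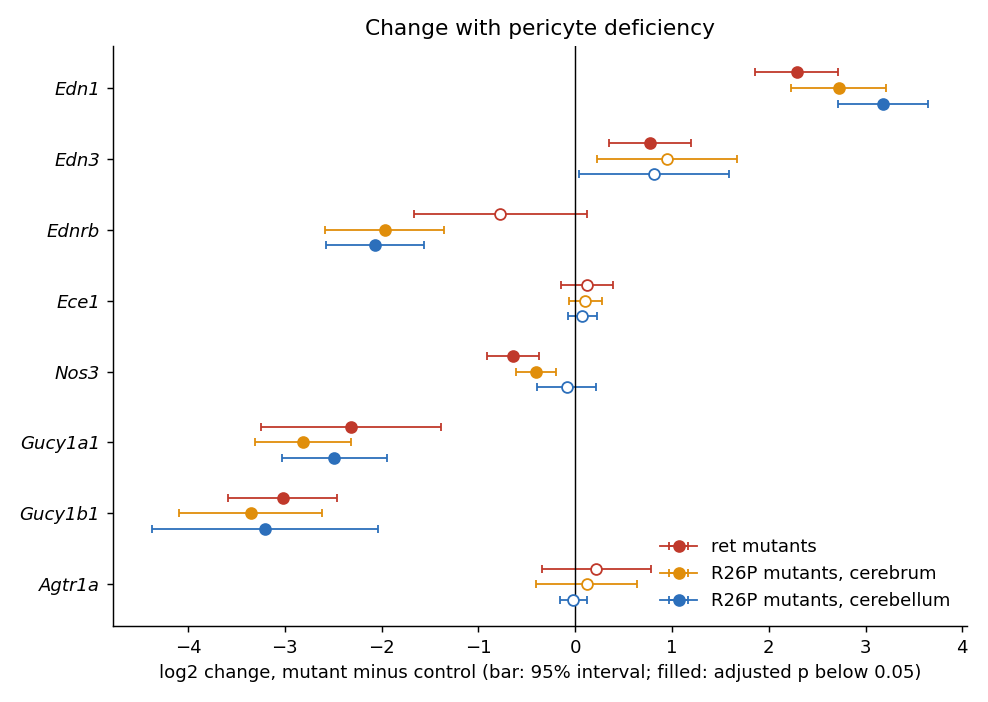
Log2 change of the 8 measured members in ret mutants, R26P mutant cerebrum and R26P mutant cerebellum, each against its own controls. Points are estimates, bars 95% intervals, and filled points passed at adjusted p below 0.05. Edn1 lies right of 0 in all 3 comparisons, at 2.29, 2.72 and 3.18, and Gucy1a1 and Gucy1b1 lie left of it, between -2.31 and -3.35.

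Edn1, the gene of the vasoconstrictor endothelin-1, was strongly raised on every mutant array. Its log2 signal was 12.41, 12.77, 12.57 and 13.27 in ret controls 1 to 4 and 15.12, 15.06, 15.15 and 14.83 in ret mutants. In R26P cerebrum it was 12.48, 11.56, 12.56 and 12.12 in controls and 14.82, 14.80, 15.04 and 14.96 in mutants. In R26P cerebellum it was 11.88, 11.41, 12.18 and 11.33 in controls and 14.75, 14.68, 15.02 and 15.06 in mutants. No control reached any mutant, and the 12 mutant arrays lay within 14.68 to 15.15 while the 12 control arrays spread from 11.33 to 13.27. The rise was 4.89-fold in ret mutants (log2 change 2.29 ± 0.18 SE, adjusted p = 0.000401) and 9.06-fold in R26P cerebellum (3.18 ± 0.20, adjusted p = 0.00012), and in R26P cerebrum the log2 change of 2.72 ± 0.21 had an adjusted p of 0.000233. The smaller rise in ret mutants came with higher controls, whose mean was 12.75 ± 0.37 (SD, n = 4) against 12.18 ± 0.45 in R26P control cerebrum, although these groups overlapped. The SD was 0.11 to 0.19 in the mutant groups and 0.37 to 0.45 in the control groups. Whether signals this high are compressed, which would bear on the size of each rise and on its differences, was not tested. The difference in the rise did not pass between the models (-0.43, 95% interval -1.06 to 0.19, adjusted p = 0.402) nor between the R26P regions (0.45, interval -0.20 to 1.11, adjusted p = 1.00). Because whole fragments were measured, fewer cells of a type and less RNA per cell cannot be told apart for any gene here, and nor can more of either.

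**Figure D2:**
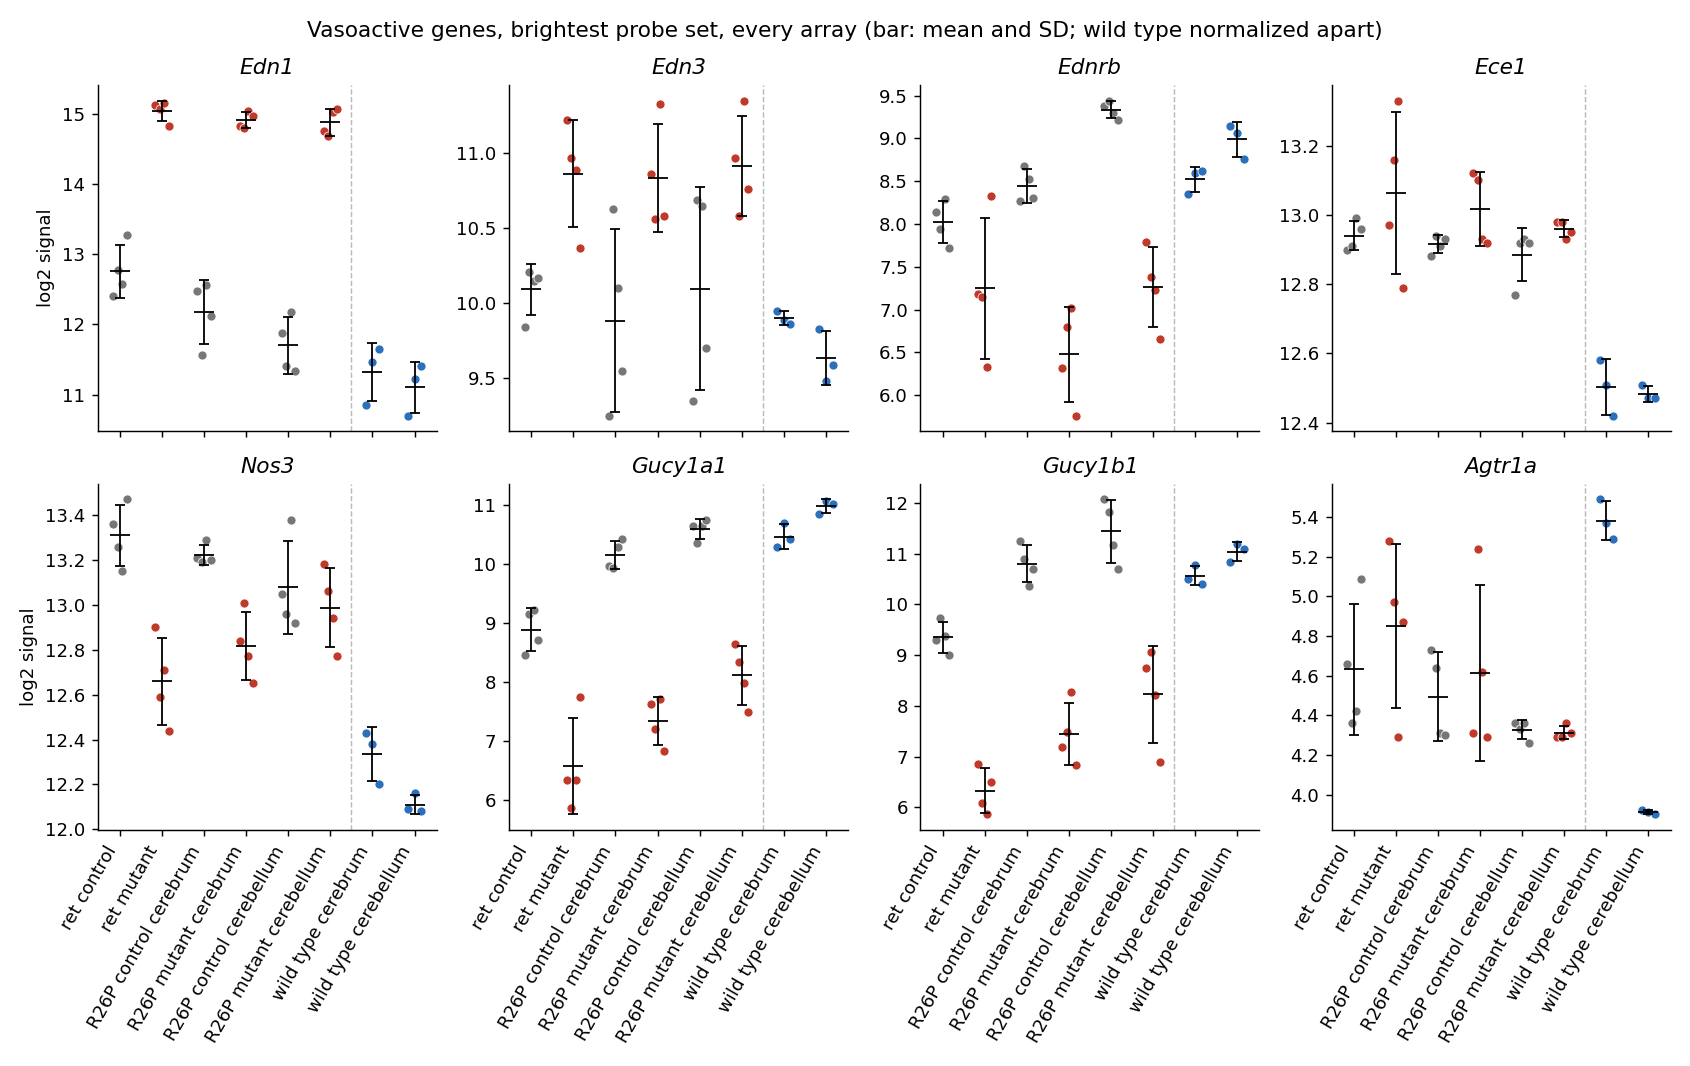
Log2 signal of the brightest probe set of each measured member on all 30 arrays, by group, with the mean and SD as a bar. Grey points are controls, red points mutants and blue points wild type, which lies right of the dashed line because it was taken as normalized apart. The mutants of all 3 comparisons sit between 14.68 and 15.15 for Edn1, above every control.

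Edn3, the gene of endothelin-3, a ligand that favours the B receptor, rose less and not on every probe set. With the brightest probe set, ret controls read 9.84, 10.21, 10.15 and 10.17 and ret mutants 11.22, 10.97, 10.89 and 10.37. The groups did not overlap, and the 1.71-fold rise passed (log2 change 0.77 ± 0.18 SE, adjusted p = 0.0266). In R26P cerebrum controls read 9.25, 10.63, 10.10 and 9.55 and mutants 10.86, 10.56, 11.33 and 10.58, so control 2 lay above 2 of the 4 mutants. The log2 change was 0.95 ± 0.31 and did not pass (adjusted p = 0.0717, interval 0.22 to 1.68), and without control 2 it was 1.20 with an adjusted p of 0.0301. In R26P cerebellum controls read 9.35, 10.69, 10.65 and 9.70 and mutants 10.97, 10.58, 11.35 and 10.76, with a log2 change of 0.82 ± 0.34 that did not pass (adjusted p = 0.141). Controls 2 and 3 stood above controls 1 and 4 in that region, and both exceeded mutant 2.

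The call in ret mutants was a narrow one. It was lost without ret control 1, 2 or 3 (adjusted p = 0.0704, 0.0577 and 0.0585) and without ret mutant 2 or 3 (0.0724 and 0.0662), and over all 19 alternatives it was kept in 8. The other 3 Edn3 probe sets did not pass in ret mutants, with log2 changes of 0.00, 0.08 and 0.12 (adjusted p = 1.00, 0.885 and 0.851), and the mean of the 4 probe sets changed by 0.24 (adjusted p = 0.565). In R26P cerebrum the same 3 probe sets did rise, by 1.23, 0.98 and 0.81 (adjusted p = 0.0234, 0.0171 and 0.0227), and the mean of the 4 rose by 0.99 (adjusted p = 0.0205). In R26P cerebellum they read 1.01, 0.80 and 0.64 and did not pass (adjusted p = 0.11, 0.149 and 0.103). Probe set 1441923_s_at, for example, read 10.11, 10.11, 9.58 and 9.85 in ret controls and 10.41, 10.12, 10.12 and 8.98 in ret mutants, but 8.00, 9.25, 8.52 and 8.41 in R26P control cerebrum and 9.88, 9.55, 10.19 and 9.49 in R26P mutant cerebrum. The probe sets of this gene thus disagreed in the ret model and agreed in direction in R26P cerebrum. The difference in the Edn3 change between the models, on the brightest probe set, did not pass (-0.18, interval -0.99 to 0.64, adjusted p = 0.822). On the other 3 probe sets it was larger, at -1.23, -0.89 and -0.69, and did not pass either (adjusted p = 0.128, 0.188 and 0.343).

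**Figure D3:**
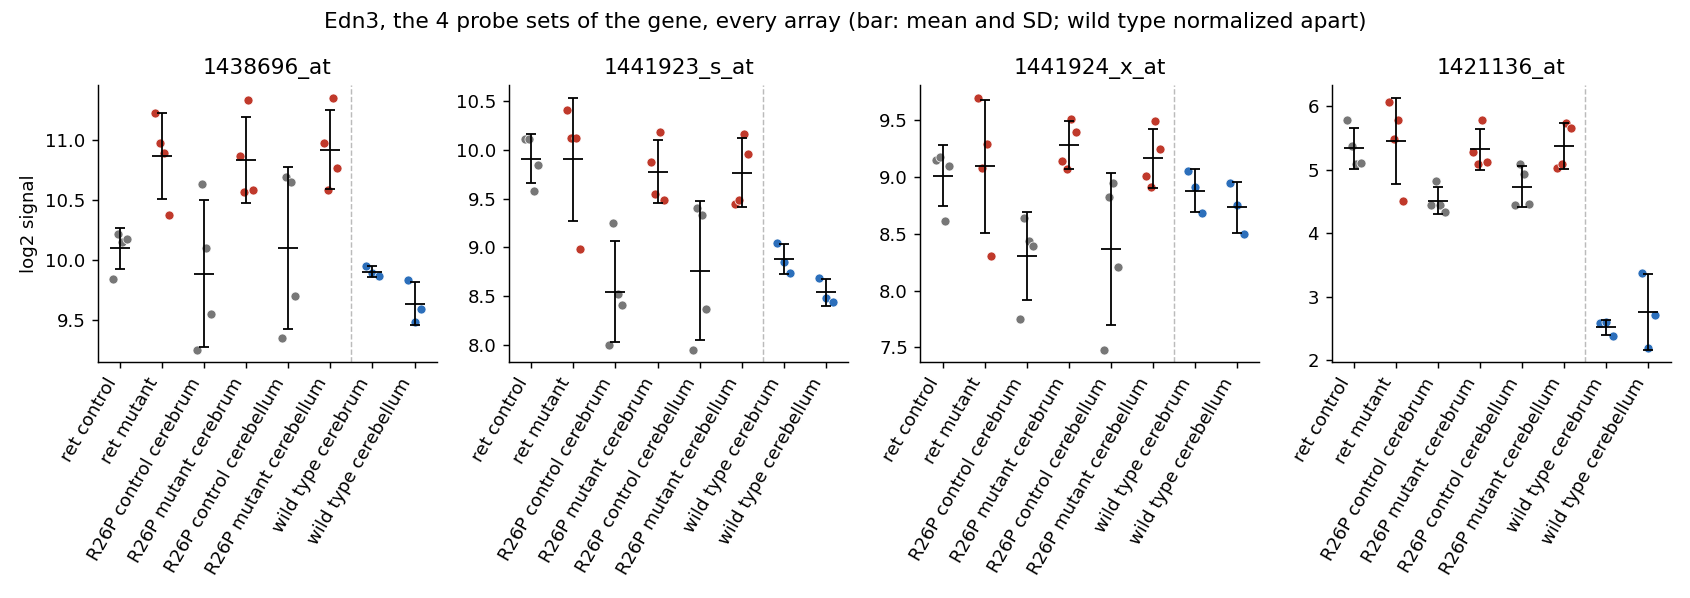
Log2 signal of the 4 Edn3 probe sets on all 30 arrays, by group, with mean and SD, in order of mean signal from the left. Red points are mutants, grey points controls and blue points wild type. Mutants and controls of the ret model separate on 1438696_at and overlap on the other 3, where the mean changes were 0.00, 0.08 and 0.12.

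Ece1, the membrane protease that cuts big endothelin to its active form, showed no change that passed. All 24 arrays of both models read 12.77 to 13.33. The log2 change was 0.12 in ret mutants (interval -0.15 to 0.39, adjusted p = 0.513), 0.11 in R26P cerebrum (interval -0.07 to 0.28, adjusted p = 0.355) and 0.07 in R26P cerebellum (adjusted p = 0.47). A second probe set changed by 0.54, 0.21 and 0.12, none of which passed (adjusted p = 0.219, 0.385 and 0.577). No interval of the brightest probe set reached past 0.39.

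Ednrb, the endothelin B receptor, fell in both regions of the R26P mutants. In cerebrum it read 8.27, 8.68, 8.52 and 8.30 in controls and 6.32, 6.80, 7.02 and 5.76 in mutants, and in cerebellum 9.38, 9.44, 9.30 and 9.21 in controls and 7.79, 7.38, 7.23 and 6.65 in mutants. Every control was above every mutant of its region. The fall was 3.92-fold in cerebrum (log2 change -1.97 ± 0.26 SE, adjusted p = 0.00236) and 4.20-fold in cerebellum (-2.07 ± 0.22, adjusted p = 0.000939). A dimmer probe set fell by 1.04 and 1.76 on the log2 scale (adjusted p = 0.0382 and 0.00138), and the mean of all probe sets fell by 1.00 and 1.28 (adjusted p = 0.00566 and 0.00054). That mean includes 1426314_at, which lay between 2.16, the lowest value, and 2.23 on all 24 arrays of the models.

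In ret mutants Ednrb did not pass on all arrays together. Controls read 8.14, 7.94, 8.29 and 7.72 and mutants 7.18, 7.15, 6.33 and 8.33, so mutant 4 exceeded every control while mutants 1 to 3 lay below them all. The log2 change was -0.77 ± 0.38 (adjusted p = 0.209, interval -1.67 to 0.12), and without mutant 4 it was -1.13 with an adjusted p of 0.025. Growth hormone (Gh), made in the pituitary and in no vessel cell, read 14.90, 13.68, 2.84 and 15.23 in ret mutants 1 to 4 and 2.17 to 2.47 in ret controls, so the mutant with the highest Ednrb also had the highest Gh and the mutant with the lowest Ednrb the lowest. Mutant 4 stood above mutants 1 to 3 in other marker lists too, with mean levels of 12.06 against 9.28 to 10.06 for choroid plexus, 5.48 against 3.65 to 4.35 for neurons, 7.11 against 5.53 to 5.78 for perivascular fibroblasts, 8.08 against 6.41 to 7.17 for smooth muscle and 7.69 against 6.66 to 6.94 for pericytes. The part of these cells in its Ednrb level was not tested. The mean log2 level of 7 pituitary genes was 3.70 to 12.21 in ret mutants and 3.35 to 3.43 in ret controls. With that mean as a covariate the Ednrb change was -1.89 (adjusted p = 0.026). Mutants 1, 2 and 4 lay far above every control in that mean, at 9.84 to 12.21. This estimate therefore rests mainly on mutant 3, at 3.70. The difference between the ret and R26P cerebrum changes of Ednrb was 1.20 ± 0.49 (interval 0.15 to 2.24) and did not pass either (adjusted p = 0.174). High Gh was not limited to ret mutants. It read 14.19 and 14.58 in R26P control cerebrum 2 and 3, 14.69 and 14.89 in mutant cerebrum 2 and 3, 14.75 in mutant cerebellum 3 and 13.93 in wild-type cerebrum 3, against at most 4.83 on the remaining R26P and wild-type arrays. In R26P mutant cerebellum the array high in Gh, mutant 3, had less Ednrb than mutants 1 and 2 and more than mutant 4. In R26P cerebrum the arrays high in Gh had the higher Ednrb within each genotype, and no link was tested. Without them, which leaves 2 arrays a group, the Ednrb change in cerebrum was -2.25 (adjusted p = 0.0539) and that of Gucy1a1 -2.97 (adjusted p = 0.0627), so the changes were no smaller but neither was called, while Edn1 at 2.59 and Gucy1b1 at -3.97 were called (adjusted p = 0.0363 for both), as were 237 genes in all. With the pituitary mean as a covariate the 5 members called in R26P cerebrum were those called without it, Ednrb at -2.07 (adjusted p = 0.000328).

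Nos3, the endothelial enzyme that makes nitric oxide, fell by a small amount in 2 of the 3 comparisons. It read 13.36, 13.26, 13.15 and 13.47 in ret controls and 12.90, 12.59, 12.71 and 12.44 in ret mutants, without overlap. The 1.56-fold fall passed (log2 change -0.65 ± 0.12 SE, adjusted p = 0.00944). With the pituitary mean as a covariate, a fit that likewise rests mainly on mutant 3, it was -0.56 and did not pass (adjusted p = 0.14). With mutant 3, the 1 ret mutant low in Gh, as the single mutant array it was -0.60. R26P control cerebrum read 13.21, 13.19, 13.29 and 13.20 and mutant cerebrum 12.84, 13.01, 12.77 and 12.65, again without overlap. That fall was 1.32-fold (-0.40 ± 0.09, adjusted p = 0.0195), and without control 3 its adjusted p was 0.0543. In cerebellum controls read 13.05, 12.96, 13.38 and 12.92 and mutants 13.18, 13.06, 12.94 and 12.77, so the groups overlapped except for control 3 at the top and mutant 4 at the bottom (log2 change -0.09, interval -0.40 to 0.22, adjusted p = 0.68). Whether the Nos3 change differed between R26P regions was tested and did not pass (0.31, interval -0.03 to 0.66, adjusted p = 1.00). Of 10 tested markers of endothelium, 0 rose and 1 fell in ret mutants, 1 rose and 1 fell in R26P cerebrum, and 2 rose and 0 fell in R26P cerebellum.

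Gucy1a1, the alpha subunit of the nitric oxide receptor, fell in all 3 comparisons. It read 8.45, 9.15, 9.22 and 8.71 in ret controls and 6.33, 5.87, 6.33 and 7.75 in ret mutants. R26P control cerebrum read 9.96, 9.94, 10.29 and 10.42 against 7.62, 7.20, 7.71 and 6.83 in mutants, and control cerebellum 10.64, 10.36, 10.64 and 10.75 against 8.64, 8.33, 7.98 and 7.49. Mutants and controls did not overlap in any of these, though ret mutant 4, at 7.75, stood above the other 3, at 5.87 to 6.33. The fall was 4.97-fold in ret mutants (log2 change -2.31 ± 0.40 SE, adjusted p = 0.00811), 7.04-fold in R26P cerebrum (-2.81 ± 0.21, adjusted p = 0.000209) and 5.61-fold in R26P cerebellum (-2.49 ± 0.23, adjusted p = 0.000596). Both dimmer probe sets also fell in the R26P regions, by 1.88 to 2.74 (adjusted p from 0.000531 to 0.00111). In ret mutants 1 of them fell by 1.66 (adjusted p = 0.0141) and the other changed by -1.38 without passing (adjusted p = 0.0574).

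Gucy1b1, the beta subunit, which the enzyme needs for binding its haem, had the largest change of the set. It read 9.29, 9.73, 9.38 and 9.0 in ret controls and 6.86, 6.09, 5.86 and 6.49 in ret mutants. R26P control cerebrum read 11.25, 10.89, 10.37 and 10.70 against 7.18, 7.49, 8.28 and 6.84 in mutants, and control cerebellum 12.07, 11.82, 11.17 and 10.69 against 8.74, 9.07, 8.22 and 6.89. Again no mutant reached a control of its comparison. The fall was 8.12-fold in ret mutants (log2 change -3.02 ± 0.24 SE, adjusted p = 0.00039), 10.2-fold in R26P cerebrum (-3.35 ± 0.32, adjusted p = 0.000539) and 9.24-fold in R26P cerebellum (-3.21 ± 0.51, adjusted p = 0.00559). The second probe set fell by 3.04, 3.77 and 3.81 (adjusted p = 0.000334, 0.00108 and 0.00728). For both subunits the difference in change did not pass between models (Gucy1a1 0.50, interval -0.51 to 1.51, adjusted p = 0.565, and Gucy1b1 0.33, interval -0.57 to 1.23, adjusted p = 0.681) or between R26P regions (adjusted p = 1.00 for both).

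The control groups of the models stood at different levels of the subunits. Every R26P control array was above every ret control array for both subunits, with means of 10.15 and 10.60 in R26P control cerebrum and cerebellum against 8.88 in ret controls for Gucy1a1, and 10.80 and 11.44 against 9.35 for Gucy1b1. The pericyte and smooth muscle lists were lower in ret controls as well, at 10.38 to 10.80 and 7.71 to 8.95 against 11.11 to 11.93 and 9.30 to 10.15 in R26P controls of both regions. These groups differ in genotype (ret controls carry the Pdgfb deletion on 1 allele, R26P controls the silent transgene), background, age and region, which cannot be told apart, and the contrast was not tested. The lowest group was the ret mutants, at 6.57 ± 0.82 for Gucy1a1 and 6.33 ± 0.44 for Gucy1b1 (SD, n = 4). In the order of group means R26P mutant cerebellum, R26P mutant cerebrum and ret mutants followed each other with overlapping ranges. The ret controls, next above, overlapped R26P mutant cerebellum as well. Their ranges were 8.45 to 9.22 and 7.49 to 8.64 for Gucy1a1, and 9.0 to 9.73 and 6.89 to 9.07 for Gucy1b1.

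Pericyte genes moved the same way as the subunits. All 9 tested pericyte markers fell in each of the 3 comparisons, and the mean log2 level of the list of 10 was 10.38 to 10.80 in ret controls and 6.66 to 7.69 in ret mutants. It was 11.11 to 11.34 and 6.98 to 8.56 in R26P cerebrum, and 11.82 to 11.93 and 8.03 to 9.52 in R26P cerebellum, in controls and mutants. Of the list only Anpep lay at the lowest value, and it did so on every array of the models. Of 8 tested smooth muscle markers, 8 fell in R26P cerebrum and 3 in R26P cerebellum, with median log2 changes of -1.75 and -1.16. In the ret model 0 of the 8 passed, although the estimates were all below 0, from -1.55 to -0.95, with a median of -1.37. Of 7 tested astrocyte markers, which matter for Ednrb because astrocytes carry it, 5, 6 and 5 fell. The mean of the astrocyte list was 8.83 to 9.38 in ret controls and 8.05 to 8.39 in mutants, 9.22 to 9.43 and 7.28 to 7.70 in R26P cerebrum, and 8.76 to 9.12 and 6.94 to 8.18 in cerebellum. The part of either list in the changes of Ednrb, Gucy1a1 and Gucy1b1 was not tested. The endothelial list mean lay between 12.68 and 13.30 on all 24 arrays of the models. In R26P cerebellum it was 12.68 to 12.92 in controls and 13.03 to 13.10 in mutants, without overlap. It overlapped in R26P cerebrum (12.77 to 13.01 and 12.84 to 13.07) and in the ret model (13.02 to 13.30 and 12.90 to 13.18). The part of this list in the changes of Edn1 and Nos3 was not tested. Arterial endothelial markers were mixed in R26P cerebrum, where 2 of 7 rose, 1 fell and 4 did not pass. In R26P cerebellum 4 rose, 0 fell and 3 did not pass. The mean of that list was 9.95 to 10.10 in controls and 10.33 to 10.46 in mutants of R26P cerebrum, and 9.73 to 10.05 and 10.39 to 10.55 in cerebellum, without overlap. In the ret model 2 rose and 1 fell, and the list mean overlapped, at 9.49 to 9.90 in controls and 9.74 to 10.03 in mutants. The part of arterial endothelium in the Edn1 rise was not tested.

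Agtr1a, the type 1a angiotensin II receptor, was near the floor of its probe set. The 24 arrays of the models read 4.26 to 5.28, and 14 of them lay within 0.1 of the lowest. Its log2 change was 0.22 in ret mutants (interval -0.34 to 0.78, adjusted p = 0.57), 0.12 in R26P cerebrum (adjusted p = 0.738) and -0.02 in R26P cerebellum (adjusted p = 0.857). At such signals a change of level can pass unseen.

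Between regions the strongest member was Agtr1a in wild type, and it was the 1 member called there, where 2.12% of all genes were called. It read 5.49, 5.37 and 5.29 in wild-type cerebrum and 3.92, 3.91 and 3.90 in cerebellum. The 2.78-fold lower signal in cerebellum passed (log2 difference -1.47 ± 0.07 SE, adjusted p = 0.00181), as it did with animals as pairs (adjusted p = 0.0283), although pairing took the genes called from 238 to 135. The cerebellar values are the lowest of this probe set, so the size of the difference is not well measured. In R26P controls the difference did not pass: they read 4.73, 4.64, 4.31 and 4.30 in cerebrum and 4.36, 4.33, 4.36 and 4.26 in cerebellum (difference -0.17, interval -0.43 to 0.09, adjusted p = 0.565). Since wild type was taken as normalized apart, whether the region difference itself differs between wild type and R26P controls was not tested.

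Ednrb was the 1 member called between regions of the R26P controls, where 1.17% of all genes were called, or 475 genes with animals as pairs against 132 without. It was higher in cerebellum, 9.33 ± 0.10 against 8.44 ± 0.19 (SD, n = 4 each), a 1.85-fold difference without overlap (log2 difference 0.89 ± 0.11 SE, adjusted p = 0.0117, and 0.0119 with pairs). It held without the 2 cerebrum arrays high in Gh (1.05, adjusted p = 0.0373). The call was lost with the mean of all probe sets (0.65, adjusted p = 0.0655) and in 1 fit of all 24 arrays (adjusted p = 0.185). Wild type read 8.35, 8.59 and 8.62 in cerebrum and 9.14, 9.06 and 8.76 in cerebellum, again without overlap, with a difference of 0.47 that did not pass (interval 0.15 to 0.79, adjusted p = 0.169). Among wild-type arrays 6 of the 8 members did not overlap between regions, but so did 21.7% of all genes.

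**Figure D4:**
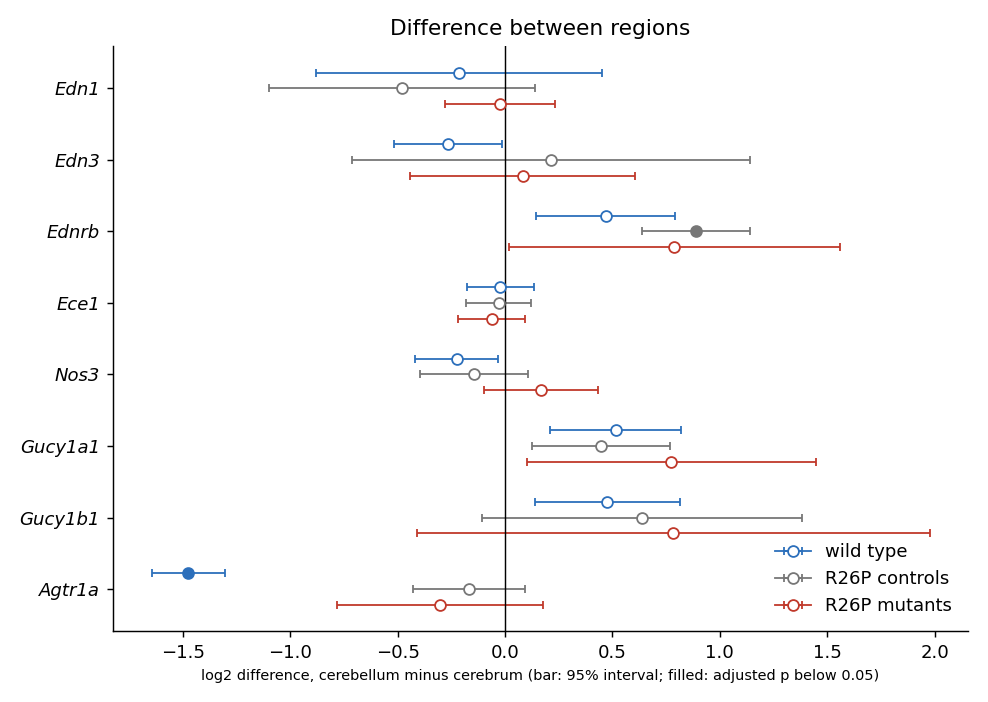
Log2 difference between cerebellum and cerebrum for the 8 measured members, with wild type in blue, R26P controls in grey and R26P mutants in red. Points are estimates, bars 95% intervals, and filled points passed at adjusted p below 0.05. The 2 filled points are Agtr1a in wild type at -1.47 and Ednrb in R26P controls at 0.89.

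Both cyclase subunits read higher in cerebellum in all 3 genotypes, but none of these differences passed. For Gucy1a1 cerebellum was higher in all 3 wild-type pairs, by 0.38 to 0.60, in all 4 control pairs, by 0.33 to 0.68, and in all 4 mutant pairs, by 0.28 to 1.13. The mean differences were 0.52, 0.45 and 0.77 (adjusted p = 0.124, 0.206 and 0.786), and with pairs the control value was 0.0536. For Gucy1b1 cerebellum was higher in 3 of 3, 3 of 4 and 3 of 4 pairs, with mean differences of 0.48, 0.64 and 0.78 (adjusted p = 0.177, 0.427 and 1.00). The pericyte list was higher in cerebellum too, with 4 of 9 markers called in wild type and 6 of 9 in R26P controls, and its part in these differences was not tested. Edn1 was lower in cerebellum in 3 of 3 wild-type pairs, 4 of 4 control pairs and 3 of 4 mutant pairs, with mean differences of -0.21, -0.48 and -0.02 that did not pass (adjusted p = 0.74, 0.476 and 1.00).

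In R26P mutants 0 members were called between regions by limma without pairs, as were 0% of all genes. Without mutant cerebrum 3 it was 42 genes, and still 0 members. Same-numbered mutant arrays deviated together (r from 0.546 to 0.84), so the fit without pairs can miss region differences. With animals as pairs 0 members were called as well. The share of all genes called in that fit is not given here, so this 0 is not read as a result about the members. At an unadjusted p below 0.05 the fit without pairs gave 2 members, Ednrb and Gucy1a1, and 5.52% of all genes. Ednrb differed by 0.79 (interval 0.02 to 1.56, adjusted p = 0.886) and was higher in cerebellum in 4 of 4 pairs. The R26P change differed between regions for 0 members (0.116% of all genes called, and 0 members at an unadjusted p below 0.05, where 2.75% of all genes were). The ret and R26P cerebrum changes differed for 0 members (3.35% of all genes called), with Ednrb the 1 member of 8 at an unadjusted p below 0.05, where 21.8% of all genes were. The region comparisons use the same R26P arrays as the comparisons of mutants with controls.

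Among the other genes of these pathways, another cyclase subunit and an angiotensin-cleaving enzyme fell with the subunits above, and an enzyme that protects nitric oxide synthesis rose. Of 22 tested genes of the nitric oxide and cyclic GMP list, 2 rose and 7 fell in ret mutants, 3 rose and 6 fell in R26P cerebrum, and 3 rose and 5 fell in R26P cerebellum, with median log2 changes of -0.02, -0.07 and -0.08. Gucy1a2, the alpha-2 subunit of the cyclase, fell 8.09-fold in ret mutants, from 8.64 ± 0.29 to 5.63 ± 0.40 (adjusted p = 0.000325), 7.75-fold in R26P cerebrum (adjusted p = 0.00117) and 9.27-fold in R26P cerebellum (adjusted p = 0.00566). Pde5a, the phosphodiesterase that degrades cyclic GMP, fell 2.18-fold, 3.26-fold and 3.11-fold (adjusted p = 0.00923, 0.00107 and 0.000716). Ddah1, which degrades the natural inhibitors of nitric oxide synthase, rose from 11.14 ± 0.13 to 12.82 ± 0.27 in ret mutants (3.21-fold, adjusted p = 0.00047), 4.96-fold in R26P cerebrum (adjusted p = 0.00017) and 3.84-fold in R26P cerebellum (adjusted p = 0.00259). Groups did not overlap for any of these 3 genes in any of the comparisons.

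**Figure D5:**
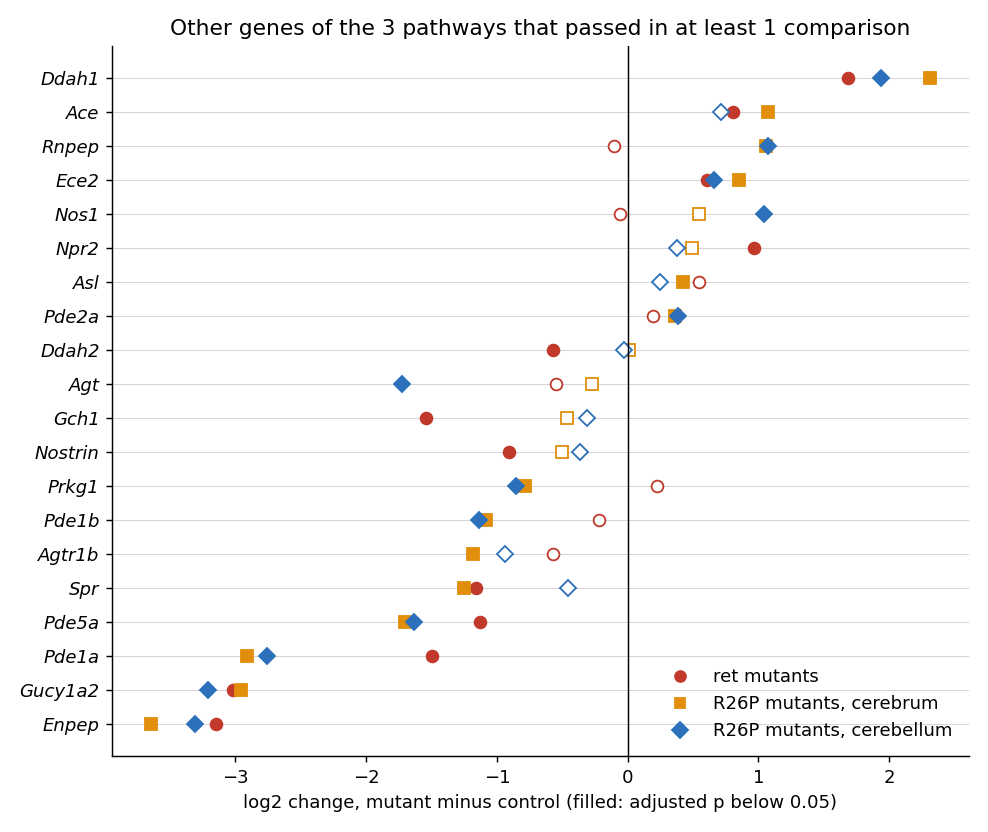
Log2 change, mutant minus control, of the 20 other genes of the endothelin, nitric oxide and angiotensin lists that passed in at least 1 of the 3 mutant comparisons. Circles are ret mutants, squares R26P cerebrum and diamonds R26P cerebellum, and filled symbols passed at adjusted p below 0.05. Enpep and Gucy1a2 lie at the low end with all 3 symbols filled, and Ddah1 at the high end.

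The calcium-dependent phosphodiesterase Pde1a fell by 1.50, 2.91 and 2.76 (adjusted p = 0.0131, 0.000329 and 0.000336), and Pde1b fell by 1.09 and 1.14 in R26P cerebrum and cerebellum (adjusted p = 0.0254 and 0.0166). The Pde1b change of -0.22 in ret mutants did not pass (adjusted p = 0.505), and its difference between models was not called. Prkg1, the cyclic GMP-dependent kinase, fell by 0.79 and 0.85 in R26P cerebrum and cerebellum (adjusted p = 0.0139 and 0.00818) and changed by 0.22 in ret mutants (adjusted p = 0.246). Gch1, the first enzyme in the synthesis of the Nos3 cofactor tetrahydrobiopterin, fell 2.91-fold in ret mutants (adjusted p = 0.00014) and did not pass in R26P cerebrum (log2 change -0.46, adjusted p = 0.146) or cerebellum (-0.31, adjusted p = 0.0787). For both genes the change differed between ret and R26P cerebrum, by 1.01 for Prkg1 (adjusted p = 0.0241) and -1.08 for Gch1 (adjusted p = 0.0252). Spr, the last enzyme of the same cofactor route, fell by 1.16 in ret mutants and 1.25 in R26P cerebrum (adjusted p = 0.0121 and 0.00375), and its change of -0.46 in cerebellum did not pass (adjusted p = 0.148). Nostrin, a protein that binds Nos3, fell by 0.91 in ret mutants (adjusted p = 0.00273), and Ddah2, a relative of Ddah1, by 0.57 there (adjusted p = 0.0427). In R26P cerebrum and cerebellum Nostrin changed by -0.50 and -0.36 (adjusted p = 0.0641 and 0.118) and Ddah2 by 0.01 and -0.03 (adjusted p = 0.962 and 0.889), none of which passed. Besides Ddah1, the genes of this list that rose were Npr2, the receptor of C-type natriuretic peptide, in ret mutants (0.97, adjusted p = 0.011), Asl, an enzyme that makes arginine, in R26P cerebrum (0.42, adjusted p = 0.0282), the phosphodiesterase Pde2a in R26P cerebrum and cerebellum (0.36 and 0.39, adjusted p = 0.0152 and 0.0391) and the neuronal synthase Nos1 in R26P cerebellum (1.05, adjusted p = 0.046).

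Of 8 tested angiotensin genes 1 rose and 1 fell in ret mutants, 2 rose and 2 fell in R26P cerebrum, and 1 rose and 2 fell in R26P cerebellum. Enpep, the aminopeptidase that trims angiotensin II, fell 8.85-fold in ret mutants, 12.5-fold in R26P cerebrum and 9.88-fold in R26P cerebellum (adjusted p = 0.0038, 0.000539 and 0.000685), and it too is known from pericytes. Ace, the angiotensin-converting enzyme of endothelium, rose by 0.80 in ret mutants (adjusted p = 0.00794) and 1.08 in R26P cerebrum (adjusted p = 0.00312), and its change of 0.71 in cerebellum did not pass (adjusted p = 0.0675). Rnpep, aminopeptidase B, rose by 1.06 and 1.07 in the R26P regions (adjusted p = 0.0109 and 0.025). The precursor gene Agt fell by 1.72 in R26P cerebellum (adjusted p = 0.0302), from a mean of 4.97 to 3.25, and the second type 1 receptor Agtr1b by 1.19 in R26P cerebrum (adjusted p = 0.0229), from 4.50 to 3.31. Both ended below 4, the level of the filter.

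Of the endothelin list 2 of 5 genes were bright enough to test. Ece2, a relative of Ece1, rose by 0.61, 0.85 and 0.66 (adjusted p = 0.0273, 0.0152 and 0.00634). The other, Mme, changed by 0.71, -0.34 and -0.17 and did not pass in any of the 3. Edn2, the gene of the remaining endothelin, was at the lowest value on all 24 arrays of the models.

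Likeness of pattern was measured as Pearson's r between a member and each other gene tested, over the 24 arrays of the models. The genes most like Edn1 were Eng (r = 0.971), Apln (0.970) and Glce (0.967). Those most like Gucy1a1 were S1pr3 (0.986), Arhgap42 (0.984) and Nr2f1 (0.983), and those most like Gucy1b1 were Tbx2 (0.977), Dact1 (0.975) and S1pr3 (0.974). Ednrb was most like Map2 of the neuron list (0.936), Gpc6 (0.931) and Kcnj8 of the pericyte list (0.927). Nos3 was less tightly matched, with Gpr4 at 0.877, as were Edn3, with Meox1 at 0.874, Ece1, with Man1b1 at 0.824, and Agtr1a, with Zbtb25 at 0.821. All these arrays were taken to share 1 normalization, and they share the same split into mutants and controls, so the values are given as a description.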

How the data were processed

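Biotin-labelled cRNA of the fragments was hybridised to Affymetrix mouse arrays, per the labels. The authors deposited log2 signals, made with GCRMA 2.6.0 in R 2.4.1 per the submitters' processing notes. Model arrays share a lowest value of 2.16 and wild-type arrays of 2.17, so they were taken as normalized apart. Of 45101 probe sets, 34958 name 1 gene. The brightest probe set stood for a gene, and genes above 4 on at least 3 of 30 arrays were tested.

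Two-sided tests were run with limma 3.58.1 (lmFit, eBayes, R 4.3.3) on the arrays of the groups being compared, and p-values were adjusted by Benjamini-Hochberg over 11243 genes. The arrays are labelled biological replicates, and p-values measure the spread between them. The number of arrays limits precision, and signals carry no depth. Named genes are the members, list genes that passed in at least 1 comparison or were among the 2 brightest of their list, and the genes most like a member. Members and lists were chosen with earlier results of these data known. Promoters came from RefSeq (GRCm38.p6). The procedure was tested on simulated data.

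Replicate numbers pair the regions: same-numbered arrays deviated together from their group means (r from 0.344 to 0.840), each best with its own number. Between mutants and controls they do not (-0.199 to 0.337). Sex labels of the ret controls contradict Xist and were not used. Alternatives covered filters, probe sets, priors, normalization, covariates, replicate block, the 24-array fit and left-out arrays.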

Additional observations from a re-analysis of the deposited data

Results flagged for a closer look

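In 3 of the 48 groups of 4 arrays examined, 1 array stood far from the other 3 by Dixon's criterion, which chance meets in about 1 in 20 groups. Edn3 in ret control 1 read 9.84 against 10.15 to 10.21 in the other ret controls. Ece1 in R26P control cerebellum 1 read 12.77 against 12.92 to 12.93. Nos3 in R26P control cerebrum 3 read 13.29 against 13.19 to 13.21. The distances are small beside the spread of most groups, and those 3 groups had unusually close remaining arrays.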

How the results depend on the processing

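Edn1 and Gucy1b1 were called in the same direction under every alternative run for the 3 mutant comparisons. So were Gucy1a1 there and Ednrb in the R26P mutants, except in R26P cerebrum without the 4 arrays with Gh above 8, chosen after seeing the data, which left 2 members called in place of 5 (Nos3 had 0.173). With the replicate number as a block, which does not pair mutants with controls, 3 members were called in ret mutants in place of 5 (Edn3 at adjusted p = 0.0914 and Nos3 at 0.0522 were not), 987 genes in place of 1870, and in R26P cerebrum Nos3 had 0.0727. With the block, R26P cerebrum had 1278 genes called in place of 2097, and the test between models 68 in place of 377. In the paired region comparisons the block changed no member's call. It took the genes called for the R26P change between regions from 13 to 29. Members called between wild-type regions went from 1 to 0 with a mean above 6, since Agtr1a was then no longer tested. Members called between R26P control regions went from 1 to 0 with the mean of all probe sets and in the fit of 24 arrays. The cause was not tested. Without any filter genes called fell to 1229 in ret mutants, 1081 in R26P cerebellum, 58 between wild-type regions and 47 between R26P control regions, with 4, 4, 1 and 1 members. Leaving out the 3 ret mutants with Gh above 8, chosen after seeing the data, left 4 members and 919 genes called there. Leaving out single arrays took the genes called between regions as low as 12 in place of 238 in wild type (without cerebellum 3) and 48 in place of 132 in R26P controls (without cerebellum 4), with 1 member called in each. For the test between models it gave 127 (without ret control 1) to 611 (without R26P mutant cerebrum 4) in place of 377, and for the R26P change between regions as few as 6 (without mutant cerebrum 2) in place of 13, with 0 members. The region labels of R26P mutant pair 3 are not settled, and without both its arrays no member's call changed. Small changes at signals near the floor, as for Agtr1a, cannot be seen here.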

Other observations

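Among 4 tested receptors for other vasoactive signals, the prostaglandin E receptor Ptger3 fell in all 3 mutant comparisons, by 1.56, 2.11 and 1.39 on the log2 scale (adjusted p = 0.0111, 0.00702 and 0.0214). The thrombin receptor F2r rose by 1.27 in ret mutants and 0.84 in R26P cerebrum (adjusted p = 0.00328 and 0.00908), and its change of 0.41 in R26P cerebellum did not pass (adjusted p = 0.191). The thromboxane receptor Tbxa2r fell by 0.86 in ret mutants (adjusted p = 0.0249), and its changes of -0.82 and -1.13 in the R26P regions did not pass (adjusted p = 0.0689 and 0.0749). Between wild-type regions Npr3, the clearance receptor of natriuretic peptides, was higher in cerebellum by 0.92, and Enpep by 0.45.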
